A study of Mus musculus with 6 samples.

Results

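The collagen genes are those whose mouse symbol has the form Col, number, a, number, and they were found on the array through the RefSeq accession of each probe. This rule gave 63 probes of 43 genes, out of 55681 probes and 20887 named genes on the array. The rule itself uses no measured value, but the family was chosen with earlier results of these data known. The RefSeq gene table holds 44 such symbols, and Col12a1, for which no probe was matched, was not analysed here. By textbook collagen families the 43 genes are 11 fibrillar genes, 6 basement membrane genes of type IV, 8 genes of fibril-associated collagens (FACIT) and 18 others.

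Gene expression was measured on 6 two-colour Agilent oligonucleotide arrays in cells sorted by GFP and tdTomato fluorescence as collecting duct cells from salt-stressed C57BL/6 mouse kidneys at postnatal day 1. MUT pools 1 to 3 came from mice of genotype Hoxb7cre+; R26RtdTomato; Bdkrb2f/f, in which the bradykinin B2 receptor gene Bdkrb2 is conditionally null. WT pools 1 to 3 came from mice of genotype Hoxb7cre+; R26RtdTomato; Bdkrb2+/+, so both groups carried the Cre and the reporter and both were salt-stressed. The Cre is driven by Hoxb7, a gene of the ureteric bud lineage that gives rise to the collecting ducts, so deletion was aimed at that lineage. What carries GFP and how many mice made up a pool are not given in the sources used here, and p-values measure the spread between pools. On each array the Cy5 channel held a pool and the Cy3 channel held RNA of WT pool 1, and the array of WT pool 1 set that RNA against itself. All values below are log2 ratios of a pool to WT pool 1, or differences of mean log2 ratio between MUT and WT pools, after loess normalization within each array.

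Collagens are extracellular proteins of 3 chains wound into a triple helix, assembled in the cell, trimmed outside it and cross-linked into fibrils or networks. Fibrillar collagens give connective tissue its tensile strength and are made mainly by stromal cells. Type IV collagen forms the network of the basement membrane on which epithelia rest. The products of Col4a1 and Col4a2 make a trimer found in most basement membranes. Those of Col4a3, Col4a4 and Col4a5 make a trimer whose sites include the mature glomerular basement membrane. Those of Col4a5 and Col4a6 make a further trimer, found in Bowman's capsule and some tubules. In people, inherited loss of the chains of COL4A3, COL4A4 or COL4A5 causes Alport syndrome. FACIT collagens sit on the surface of fibrils, and the remaining families form beaded filaments (type VI), hexagonal networks (type VIII) or anchoring fibrils (type VII), span the cell membrane, or lie in basement membrane zones with heparan sulphate or chondroitin sulphate chains (types XV and XVIII).

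Several collagen genes lie next to each other in the mouse genome, and promoters of type IV neighbours are shown because these genes are compared below. In the RefSeq annotation Col4a1 and Col4a2 are neighbours on chromosome 8, Col4a4 and Col4a3 on chromosome 1, Col4a6 and Col4a5 on X, Col3a1 and Col5a2 on chromosome 1, and Col6a2 and Col6a1 on chromosome 10. The annotated starts of Col4a1 and Col4a2 lie 21 bases apart on opposite strands, with the first bases of the transcripts overlapping. Those of Col4a6 and Col4a5 lie 1343 bases apart, also on opposite strands. Each sequence below is the 250 bases before the annotated start, 5′ to 3′ on the gene's own strand, from RefSeq on build GRCm38.p6. Capitals mark the letters CCAAT, the letters TATAAA or the letters GGGCGG on either strand, and none of these motifs overlapped in the windows shown.
Col4a1 (chr8:11312827-11313076, minus strand): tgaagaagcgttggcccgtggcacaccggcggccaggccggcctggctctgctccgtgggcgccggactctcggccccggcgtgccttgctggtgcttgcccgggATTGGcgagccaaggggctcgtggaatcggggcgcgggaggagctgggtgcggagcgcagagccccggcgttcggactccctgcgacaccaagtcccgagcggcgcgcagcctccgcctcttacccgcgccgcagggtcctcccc
Col4a2 (chr8:11312555-11312804, plus strand): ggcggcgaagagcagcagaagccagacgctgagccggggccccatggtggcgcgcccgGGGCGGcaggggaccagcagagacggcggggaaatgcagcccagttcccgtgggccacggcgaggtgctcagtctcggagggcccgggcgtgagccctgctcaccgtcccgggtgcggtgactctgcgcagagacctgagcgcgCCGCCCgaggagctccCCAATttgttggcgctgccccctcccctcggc
Col4a5 (chrX:141475169-141475418, plus strand): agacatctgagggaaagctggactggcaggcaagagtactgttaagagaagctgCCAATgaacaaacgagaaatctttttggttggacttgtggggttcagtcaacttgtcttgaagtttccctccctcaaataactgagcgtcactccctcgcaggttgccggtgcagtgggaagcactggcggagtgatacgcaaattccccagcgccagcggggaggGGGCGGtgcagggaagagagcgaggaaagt
Col4a6 (chrX:141474077-141474326, minus strand): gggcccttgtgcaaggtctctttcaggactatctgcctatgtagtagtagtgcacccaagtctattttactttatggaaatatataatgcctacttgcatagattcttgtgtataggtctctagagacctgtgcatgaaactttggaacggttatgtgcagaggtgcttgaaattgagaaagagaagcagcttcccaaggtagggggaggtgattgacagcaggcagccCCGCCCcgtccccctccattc
Col4a4 (chr1:82586850-82587099, minus strand): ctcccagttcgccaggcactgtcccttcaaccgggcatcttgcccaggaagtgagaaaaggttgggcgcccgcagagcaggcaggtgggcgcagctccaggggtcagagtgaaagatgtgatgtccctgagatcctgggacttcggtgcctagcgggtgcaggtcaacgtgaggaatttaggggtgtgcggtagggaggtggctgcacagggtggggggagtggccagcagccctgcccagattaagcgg
The window of Col4a4, the gene with the largest fall among the collagens, held none of the 3 motifs. For contrast, the windows of Col1a2 and Col3a1, fibrillar genes that were higher in MUT pools, are shown in the same way.
Col1a2 (chr6:4505368-4505617, plus strand): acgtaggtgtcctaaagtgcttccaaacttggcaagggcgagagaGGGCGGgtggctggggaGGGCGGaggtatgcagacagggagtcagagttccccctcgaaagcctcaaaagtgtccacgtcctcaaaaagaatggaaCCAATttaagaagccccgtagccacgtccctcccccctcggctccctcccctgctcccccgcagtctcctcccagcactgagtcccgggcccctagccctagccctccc
Col3a1 (chr1:45311288-45311537, plus strand): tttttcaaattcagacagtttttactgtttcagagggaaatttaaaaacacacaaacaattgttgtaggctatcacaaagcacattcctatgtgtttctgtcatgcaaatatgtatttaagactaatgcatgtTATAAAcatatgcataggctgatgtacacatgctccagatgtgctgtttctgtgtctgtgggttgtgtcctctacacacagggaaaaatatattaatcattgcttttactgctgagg
The windows of Col1a2 and Col4a2 each held CCAAT and GGGCGG, while that of Col3a1 held TATAAA alone. Among the promoters, 38 windows belonged to 35 of the collagen genes. CCAAT was in 34.2% of these and in 33.8% of all 32851 windows, and TATAAA was in 13.2% and 12.4%. GGGCGG was in 57.9% of the collagen windows and in 32.7% of all windows, and the median GC content was 59.0% against 52.4%. A match is a run of letters and not a shown binding site. Col4a3, Col1a1, Col2a1 and Col5a2 are among the genes without an entry in the table used here.

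The targeted gene gave no check of the labels. The Bdkrb2 probe was dim in all 6 pools, not well above background in any of them. Its log2 ratios were -0.02, 0.05 and -0.08 in MUT pools, against 0.12, 0.09 and -0.16 in WT pools, with the groups overlapping.

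Of the 43 collagen genes, 35 had a probe whose Cy5 signal was well above background in every pool of MUT, of WT or of both, and were tested. Of these 28 were well above background in all 6 pools. Among these 35 genes, 18 were higher in MUT pools, 5 were lower and 12 were not called at an adjusted p under 0.05. Over all 14585 tested genes, 14% were called higher and 18.8% lower, 32.8% in all, and 26.1% of tested probes were called. The median difference was a log2 of 0.62 over the collagens and -0.02 over all tested genes. Of the tested collagens 6 passed the filter through MUT pools alone and 1 through WT pools alone, so the counts are of genes that could be measured and not of all members. The 8 untested genes were Col6a4, Col6a5, Col6a6, Col9a3, Col10a1, Col17a1, Col19a1 and Col28a1. The plot of log2 ratios by pool shows where the MUT and WT pools overlapped. They did not overlap for 21 genes that were higher and 5 that were lower in MUT, against 24.2% and 28.3% of all tested genes.

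**Figure D1:**
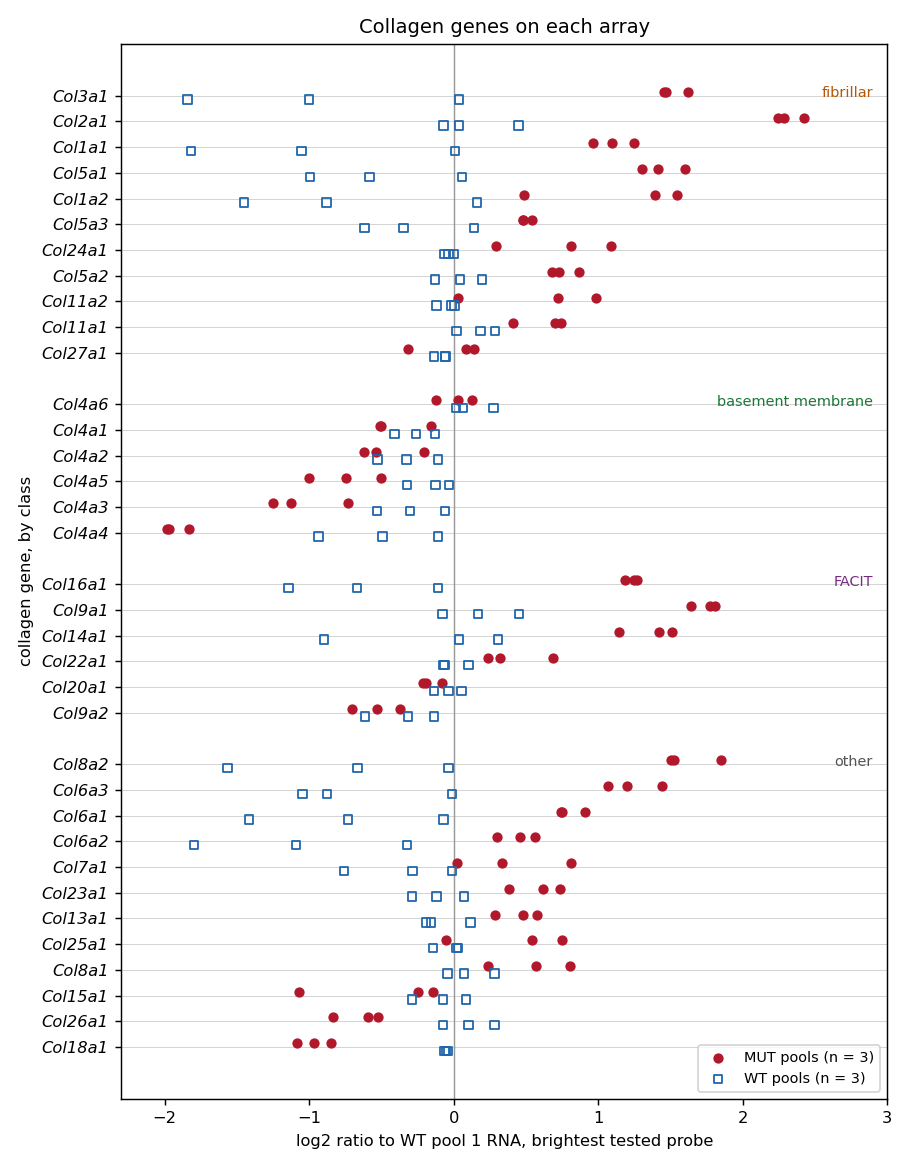
Log2 ratio to WT pool 1 RNA (x axis) of the brightest tested probe of each of the 35 tested collagen genes (y axis, by class and then by difference), with a filled circle for each MUT pool and an open square for each WT pool. The MUT circles lie right of the WT squares for 10 of the 11 fibrillar genes, and left of them for Col4a3, Col4a4, Col4a5, Col18a1 and Col26a1.

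The direction of the calls varied by class, where 14% of all tested genes were called higher and 18.8% lower. Fibrillar genes were higher in 9 of 11 cases, with a median log2 difference of 0.78. Col11a1 and Col11a2 passed the filter through the MUT pools alone. Of the 6 type IV genes 3 were lower, and all 6 differences were below 0, with a median of -0.36. FACIT genes were higher in 3 of 6 tested cases, with a median of 0.98. The other families were higher in 6 of 12, with a median of 0.61, and lower in 2, near the share of all tested genes. Over the genes well above background in all 6 pools the medians were 1.86 (fibrillar), 1.54 (FACIT) and 1.13 (other). With Agilent's processed signals they were 1.53, 1.62 and 1.76 over all tested genes of these classes. The class medians in MUT pools 1 to 3 were 0.97, 0.87 and 0.68 for the fibrillar genes, and in WT pools 1 to 3 they were 0.04, -0.13 and -0.13. For type IV genes they were -0.52, -0.81 and -0.48 in the MUT pools and -0.08, -0.47 and -0.19 in the WT pools. The difference between classes itself was not tested, since the genes of a class are not replicates.

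**Figure D2:**
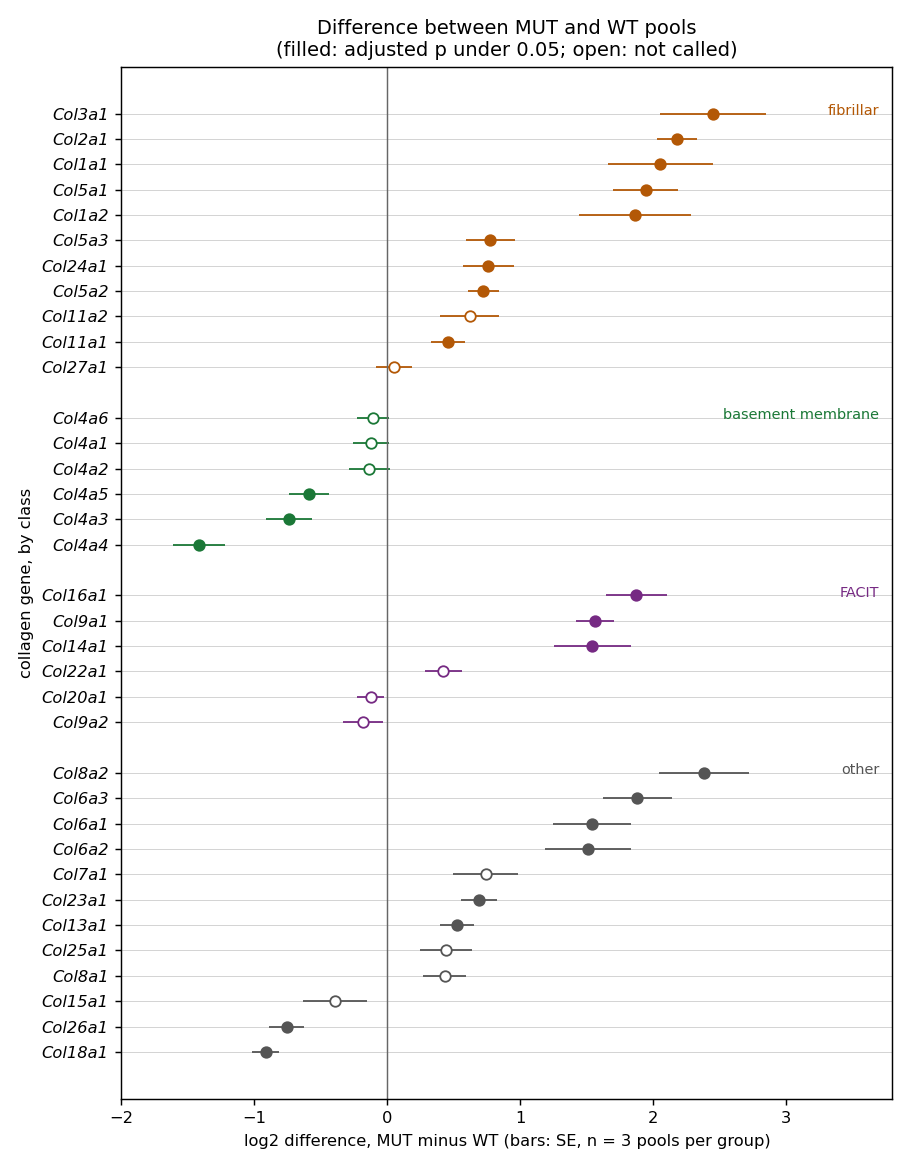
Difference of mean log2 ratio, MUT minus WT (x axis), with its SE (bars, n = 3 pools per group), for the 35 tested collagen genes by class; filled points passed an adjusted p of 0.05 and open points did not. Fibrillar, FACIT and type VI genes lie mostly right of 0, from 0.05 to 2.45 in the fibrillar class, and all 6 type IV genes lie left of 0, from -0.11 to -1.42.

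Among the fibrillar collagens, the chains of types I, II and III and Col5a1 of type V had the largest differences. Col3a1, the single chain of type III collagen of distensible tissues, had log2 ratios of 1.62, 1.47 and 1.46 in MUT pools 1 to 3, against 0.04, -1.0 and -1.84 in WT pools 1 to 3. The 3 MUT pools were nearly alike, and the WT pools spread over a wider range below them. Col3a1 was 5.47-fold higher in MUT (log2 2.45 ± 0.40 SE, adjusted p = 0.00396). Col2a1, the chain of the type II collagen of cartilage, had log2 ratios of 2.42, 2.29 and 2.25 in MUT pools, against 0.04, 0.45 and -0.07 in WT pools. Here the WT pools lay close together, and the groups were far apart relative to either spread (4.53-fold higher in MUT, log2 2.18 ± 0.15 SE, adjusted p = 0.000365). Col1a1 encodes the major chain of type I collagen, the main collagen of most connective tissue. Its log2 ratios were 0.97, 1.25 and 1.09 in MUT pools, against 0.01, -1.05 and -1.82 in WT pools. The MUT pools were alike, and WT pool 1 stood between them and the other WT pools (4.16-fold higher in MUT, log2 2.06 ± 0.39 SE, adjusted p = 0.00755). Col5a1, a chain of the type V collagen that limits fibril diameter, had log2 ratios of 1.60, 1.30 and 1.41 in MUT pools, against 0.06, -0.58 and -1.0 in WT pools. The groups did not overlap (3.85-fold higher, log2 1.95 ± 0.24 SE, adjusted p = 0.00133).

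The other fibrillar genes had smaller or less steady differences. Col1a2, the second chain of type I collagen, was higher by a log2 of 1.86 ± 0.42 SE (adjusted p = 0.0151). MUT pool 1 at 0.48 lay well below MUT pools 2 and 3 at 1.39 and 1.55, and the WT pools were at 0.16, -0.88 and -1.45. The array of MUT pool 1 also had the most spots marked as outliers, 403, and any link to its Col1a2 value was not tested. The adjusted p of Col1a2 was 0.0526 without MUT pool 2, 0.0564 without WT pool 2 and 0.0580 without WT pool 3. Col5a2 and Col5a3, the remaining type V chains, rose by log2 differences of 0.72 ± 0.12 SE and 0.78 ± 0.18 SE (adjusted p = 0.00392 and 0.0177). Col24a1, a minor fibrillar chain, was higher by 0.76 ± 0.19 SE, and Col11a1, a type XI chain of cartilage fibrils, by 0.46 ± 0.13 SE (adjusted p = 0.0220 and 0.0344). Col11a1 passed the background limit in 2 of 3 WT pools. Without WT pool 3 the adjusted p was 0.0616 for Col5a3, 0.0823 for Col24a1 and 0.107 for Col11a1. The remaining fibrillar genes did not pass: Col11a2 differed by 0.62 ± 0.22 SE (adjusted p = 0.0779) and Col27a1 by 0.05 ± 0.14 SE (adjusted p = 0.803).

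The type IV genes, all well above background on all 6 arrays, split into genes that fell and genes that did not pass the test. Col4a1 had log2 ratios of -0.51, -0.50 and -0.15 in MUT pools 1 to 3, against -0.13, -0.41 and -0.26 in WT pools 1 to 3. Col4a2 had log2 ratios of -0.54, -0.62 and -0.21 in MUT pools, against -0.11, -0.53 and -0.33 in WT pools. For both genes the MUT and WT pools overlapped. The differences were a log2 of -0.12 ± 0.14 SE for Col4a1 and -0.14 ± 0.15 SE for Col4a2 (adjusted p = 0.542 and 0.552). Col4a6 had log2 ratios of 0.12, -0.12 and 0.03 in MUT pools, against 0.28, 0.06 and 0.01 in WT pools. Its groups also overlapped, with a difference of -0.11 ± 0.12 SE (adjusted p = 0.538), and its other probe gave -0.0044.

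Col4a4 fell furthest, with log2 ratios of -1.83, -1.97 and -1.99 in MUT pools, against -0.49, -0.93 and -0.11 in WT pools. Every MUT pool lay below every WT pool, and the MUT pools lay within a narrower range than the WT pools. It was 2.67-fold lower in MUT (log2 -1.42 ± 0.20 SE, adjusted p = 0.00196), and its other probes were lower by a log2 of -1.29 and -1.75, both called. Col4a3 had log2 ratios of -0.73, -1.25 and -1.13 in MUT pools, against -0.06, -0.53 and -0.30 in WT pools, with no overlap (log2 -0.74 ± 0.17 SE, adjusted p = 0.0170). Col4a5 had log2 ratios of -0.50, -1.0 and -0.75 in MUT pools, against -0.03, -0.32 and -0.13 in WT pools. MUT pool 1 and WT pool 2 came closest to each other, and the difference was -0.59 ± 0.15 SE (adjusted p = 0.0233). The 3 genes that fell are those whose chains assemble together into 1 of the type IV trimers. Which cells of the pools the transcripts came from was not tested. The calls of Col4a3 and Col4a5 were near the threshold and depended on single pools, and that of Col4a5 also on the signal used. The adjusted p of Col4a5 was 0.0718 with Agilent's processed signals, 0.0716 with the deposited value table and 0.0971 with the Cy5 channel alone. Without WT pool 3 the adjusted p was 0.0671 for Col4a3 and 0.0918 for Col4a5, without WT pool 1 it was 0.0642 and 0.0872, without MUT pool 2 it was 0.0578 and 0.0658, and without MUT pool 3 it was 0.0513 and 0.0568.

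The falls are relative to the typical probe. After scaling each array to its 10 spike-in controls, the median tested probe was higher in MUT by a log2 of 0.95. The spike-in shifts taken off the arrays were -0.70, -0.55 and -0.18 in MUT pools 1 to 3. In WT pools 1 to 3 they were 0.01, 0.39 and 1.01, so they also varied widely within a group. Col4a3 was then at 0.21 and Col4a5 at 0.36, above 0, and Col4a4 was at -0.47 and no longer called (adjusted p = 0.244). With each array centred on its median and no loess, Col4a4 was the collagen still called lower, and the adjusted p was 0.126 for Col4a3, 0.390 for Col4a5, 0.0977 for Col18a1 and 0.147 for Col26a1. After spike-in scaling, which adds the same amount to the differences of all type IV genes, Col4a1, Col4a2 and Col4a6 were at 0.83, 0.81 and 0.84.

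**Figure D3:**
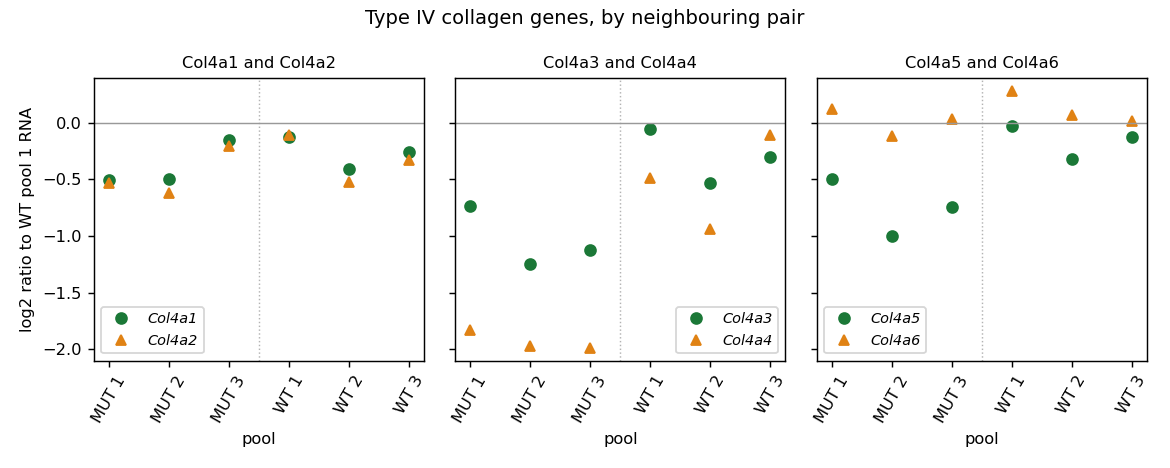
Log2 ratio to WT pool 1 RNA (y axis) of the brightest probe of the 6 type IV genes in MUT pools 1 to 3 and WT pools 1 to 3 (x axis), 1 panel per neighbouring pair. Col4a1 and Col4a2 lie almost on top of each other in every pool, Col4a4 lies below Col4a3 by 0.72 to 1.10 in the MUT pools, and Col4a5 lies below Col4a6 in all 6 pools, by 0.63 to 0.88 in the MUT pools.

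Partner chains were compared within each pool for 13 pairs, since a shift of a whole array cancels in the difference between partners. The background offset and loess act by brightness, so their effects need not cancel for partners of unlike signal. With 3 pools against 3 the smallest possible exact two-sided permutation p is 0.1, or 0.186 after adjustment over the 13 pairs, so no pair could pass. Col4a1 and Col4a2, with overlapping starts, had close offsets in both groups: Col4a1 minus Col4a2 averaged 0.067 ± 0.048 in MUT pools and 0.054 ± 0.069 in WT pools (SD, n = 3 each, exact permutation p = 0.9). Col4a5 minus Col4a6 averaged -0.76 ± 0.13 in MUT pools and -0.28 ± 0.13 in WT pools, with the groups apart (SD, n = 3 each, exact permutation p = 0.1). Col4a3 minus Col4a4 averaged 0.89 ± 0.19 in MUT pools and 0.21 ± 0.35 in WT pools, also with no overlap (SD, n = 3 each, exact permutation p = 0.1). Col4a4 thus lay further below Col4a3 in every MUT pool than in any WT pool, with the main processing. The size of this gap depended on the processing, and Col4a3 had the dimmer probe. The MUT minus WT difference of Col4a3 was -0.74 in the main fit, -0.93 with an offset of 0 and -1.04 with Agilent's processed signals. For Col4a4 these values were -1.42, -1.46 and -1.41.

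Between MUT and WT the type I pair and Col6a1 minus Col6a2 differed little on average, and pairs of types V, VIII and IX differed more. Col1a1 minus Col1a2 differed between MUT and WT by 0.19 (n = 3 each, exact permutation p = 0.7), but its MUT pools were spread, at 0.48, -0.15 and -0.45. Col6a1 minus Col6a2 differed by 0.03 (n = 3 each, exact permutation p = 0.7). Col6a1 minus Col6a3 differed by -0.34 and Col6a2 minus Col6a3 by -0.37, with overlapping groups (n = 3 each, exact permutation p = 0.2 for each). Col9a1 minus Col9a2 averaged 2.28 ± 0.11 in MUT pools and 0.54 ± 0.23 in WT pools (SD, n = 3 each, exact permutation p = 0.1). Col5a1 minus Col5a2 averaged 0.68 ± 0.22 in MUT pools and -0.54 ± 0.37 in WT pools, and Col8a2 minus Col8a1 averaged 1.09 ± 0.18 in MUT pools and -0.86 ± 0.93 in WT pools (SD, n = 3 each, exact permutation p = 0.1 for each). In all 3 of these pairs every MUT pool was above every WT pool. Col8a1 was not well above background in the WT pools, which limits what its partner difference can show.

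Of the FACIT genes, 6 of 8 were tested. Col16a1, of a FACIT collagen that also lies near basement membranes, had log2 ratios of 1.19, 1.25 and 1.27 in MUT pools 1 to 3, against -0.11, -0.67 and -1.14 in WT pools 1 to 3. The MUT pools were almost equal and all above the WT pools (3.67-fold higher, log2 1.87 ± 0.23 SE, adjusted p = 0.00125). A second Col16a1 probe was also called, at 1.75. The third, not well above background in the WT pools, was not called, at 0.26 (adjusted p = 0.0852). Col9a1, a chain of the type IX collagen that coats cartilage fibrils, had log2 ratios of 1.64, 1.81 and 1.78 in MUT pools, against 0.17, 0.45 and -0.08 in WT pools. Both groups were tight and well apart (2.95-fold higher, log2 1.56 ± 0.15 SE, adjusted p = 0.000491), and its other probe was not tested. Col14a1, a FACIT chain of fibril-rich connective tissue, had log2 ratios of 1.42, 1.14 and 1.51 in MUT pools, against 0.31, 0.04 and -0.90 in WT pools. It was 2.91-fold higher (log2 1.54 ± 0.29 SE, adjusted p = 0.00675), with no overlap, and its other probe was higher by 0.94. The other tested FACIT genes were not called. Col9a2, a partner of Col9a1, differed by -0.18 (adjusted p = 0.414) and Col20a1 by -0.12 (adjusted p = 0.406). Col22a1 was not well above background in the WT pools, so no fold is given (adjusted p = 0.0580).

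The type VI chains, which form beaded filaments around cells, rose together. Col6a3, the longest of these chains, had log2 ratios of 1.07, 1.20 and 1.44 in MUT pools 1 to 3, against -0.01, -0.88 and -1.05 in WT pools 1 to 3 (log2 1.88 ± 0.26 SE, adjusted p = 0.00192). Col6a1 had log2 ratios of 0.75, 0.75 and 0.91 in MUT pools, against -0.07, -0.73 and -1.42 in WT pools (log2 1.54 ± 0.29 SE, adjusted p = 0.00745). Col6a2 had log2 ratios of 0.46, 0.30 and 0.56 in MUT pools, against -0.32, -1.09 and -1.80 in WT pools (log2 1.51 ± 0.32 SE, adjusted p = 0.0118). In all 3 genes WT pool 1 was the highest WT pool and WT pool 3 the lowest, and no MUT pool overlapped a WT pool. The later members of the family, Col6a4, Col6a5 and Col6a6, were below the filter.

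Col8a2, a short chain of hexagonal networks, had log2 ratios of 1.85, 1.5 and 1.53 in MUT pools, against -0.03, -0.66 and -1.56 in WT pools. All MUT pools were above all WT pools (5.21-fold higher, log2 2.38 ± 0.34 SE, adjusted p = 0.00224), and the other Col8a2 probe was not tested. Its partner Col8a1, not well above background in the WT pools, was not called (adjusted p = 0.0872). Of the membrane-spanning collagens, Col13a1 was called higher (adjusted p = 0.0208), with no fold given because it was not well above background in the WT pools. Col23a1, above background on 1 of 3 WT arrays, was higher by 0.69 ± 0.14 SE (adjusted p = 0.00891), while its other tested probe differed by 0.065 and was not called. Col7a1, of anchoring fibrils, differed by 0.74 (adjusted p = 0.0592) and Col25a1, a membrane-spanning collagen, by 0.44 (adjusted p = 0.138), neither called.

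Col18a1 and Col26a1 were the genes called lower outside the type IV class. Col18a1, the basement membrane collagen from which endostatin is released, had log2 ratios of -1.08, -0.97 and -0.85 in MUT pools 1 to 3, against -0.06, -0.04 and -0.05 in WT pools 1 to 3. The WT pools were almost identical and the MUT pools all below them (1.88-fold lower, log2 -0.91 ± 0.10 SE, adjusted p = 0.000833), and a second probe was lower by a log2 of -0.88. Col26a1 had log2 ratios of -0.53, -0.59 and -0.84 in MUT pools, against -0.07, 0.28 and 0.10 in WT pools (log2 -0.76 ± 0.13 SE, adjusted p = 0.00539). After spike-in scaling Col18a1 was at 0.03 and Col26a1 at 0.19. Col15a1, the relative of Col18a1, was not called (-0.39, adjusted p = 0.265), with MUT pool 1 at -1.07 and MUT pools 2 and 3 at -0.14 and -0.25.

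WT pools 2 and 3 lay below WT pool 1 for part of the collagens. Both were more than 0.5 below WT pool 1 on the log2 scale for 9 of 35 collagens (25.7%), against 1.51% of all tested genes. The 9 were Col1a1, Col1a2, Col3a1, Col5a1, Col6a1, Col6a2, Col6a3, Col8a2 and Col16a1, all called higher in MUT, and no type IV gene was among them. Low values in WT pools 2 and 3 also lower the WT mean, so these calls are not independent of how the 9 were picked. WT pool 1 shared its slide row with the 3 MUT pools, and WT pools 2 and 3 lay in the other row. With the row as a block, MUT pools are in effect set against WT pool 1 alone. In that fit 7 collagens were higher and 2 lower, where 3.44% and 7.45% of all tested genes were called. The 7 were Col2a1, Col3a1, Col5a1, Col6a3, Col8a2, Col9a1 and Col16a1, and the 2 were Col4a4 and Col18a1. The other 14 called collagens had adjusted p-values from 0.0543 to 0.299 in that fit. Col2a1 and Col9a1 kept their size, at 2.28 and 1.58 with the row as a block. Col3a1 was at 1.48, Col1a1 at 1.09 (adjusted p = 0.0754), Col1a2 at 0.98 (adjusted p = 0.230), Col6a1 at 0.87 (adjusted p = 0.101) and Col6a2 at 0.76 (adjusted p = 0.156). Col5a3 was at 0.36 and Col13a1 at 0.33 (adjusted p = 0.252 and 0.299). Col4a4 was at -1.44, and Col4a3 at -0.98 with an adjusted p of 0.0543. Slide row and the spread between WT pools cannot be told apart.

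**Figure D4:**
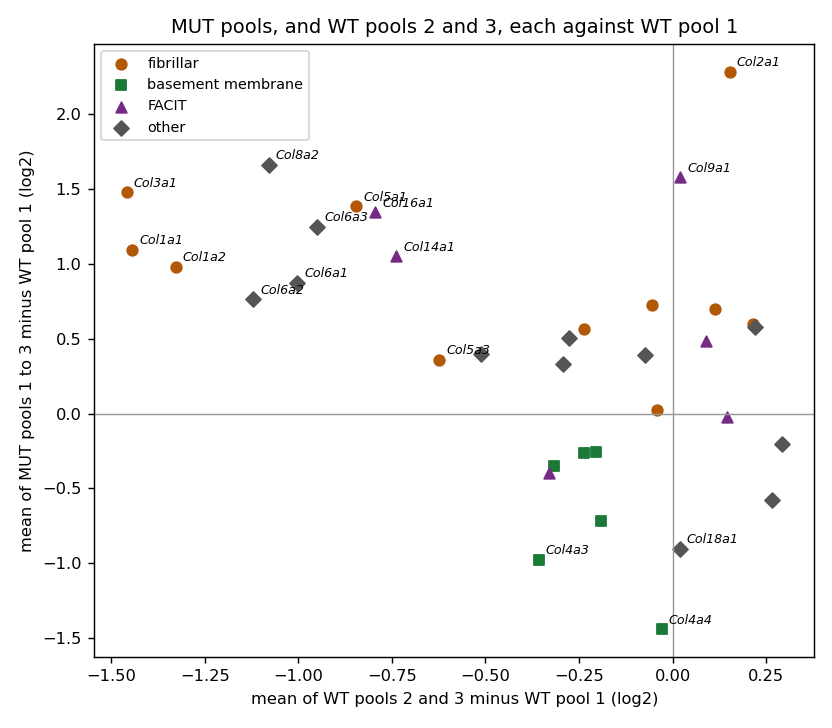
Mean of MUT pools 1 to 3 minus WT pool 1 (y axis) against the mean of WT pools 2 and 3 minus WT pool 1 (x axis), both log2, for the 35 tested collagen genes, with colour and shape for class. Both axes share WT pool 1, so no correlation is read from them; Col2a1 and Col9a1 are high and Col4a4 and Col18a1 low where the mean of WT pools 2 and 3 is near WT pool 1, and the type I, III and VI chains lie at the upper left.

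Markers of other cell types moved in the same pools. Over all tested genes 14% were called higher and 18.8% lower. Stroma markers, which include no collagen, were higher in 7 of 9 tested cases, with per-pool medians of 1.83, 1.51 and 1.53 in MUT pools and 0.13, -0.71 and -0.80 in WT pools. Their summed Cy5 signal ranged from 18516 to 20792 in MUT pools and from 3246 to 8519 in WT pools. Meis1, a stromal transcription factor, was higher by a log2 of 2.94 ± 0.25 SE and Cdh11, a mesenchymal cadherin, by 2.95 ± 0.27 SE. Dcn and Lum, proteoglycans that bind collagen fibrils, were not called, at 0.54 ± 0.45 SE and 0.34 ± 0.46 SE, and Dpt was not tested. Dcn was at -1.01, 0.14 and -0.55 in MUT pools 1 to 3, against -0.09, -1.11 and -1.85 in WT pools 1 to 3, so that WT pool 1 overlapped the MUT pools. Nephron progenitor markers were higher in 6 of 7 cases, with a median of 2.13, among them Gdnf and Six2 at 3.98 and 2.56. Mural and smooth muscle markers were higher in 2 of 7 (Rgs5 and Acta2 at 1.24 and 0.80). The other 5 were not called: Tagln at 0.63, Des at 0.59, Cnn1 at 0.05, Myh11 at -0.04 and Notch3 at -0.30. Among podocyte markers, of cells that make the trimer holding Col4a3, Ptpro was not called, at 0.85 ± 0.31 SE (adjusted p = 0.0822). The podocyte medians were -0.01, -0.13 and -0.27 in MUT pools, against 0.13, -1.0 and -0.78 in WT pools.

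Collecting duct markers were measurable in every pool and lower in MUT. All 7 tested principal cell markers were lower, as were all 6 intercalated cell markers and all 8 ureteric trunk markers, with medians of -1.90, -2.46 and -1.43. Of all tested genes 18.8% were called lower. Aqp3, a water channel of principal cells, was at -1.90 and Fxyd4, a sodium pump regulator, at -2.57. Slc4a9, an anion exchanger, and Foxi1, the transcription factor of intercalated cells, were at -2.50 and -2.42. Cdh1, the epithelial cadherin, was at -1.52 and Wnt7b at -1.14. Endothelial markers were lower in 8 of 9, with a median of -1.02 (Sox17 and Egfl7 at -1.08 and -1.02). No tested marker of any list was below background on all arrays of a group. The part of any of these cell types in the collagen differences was not tested. In pooled cells, fewer cells of a type and less RNA per cell cannot be told apart.

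**Figure D5:**
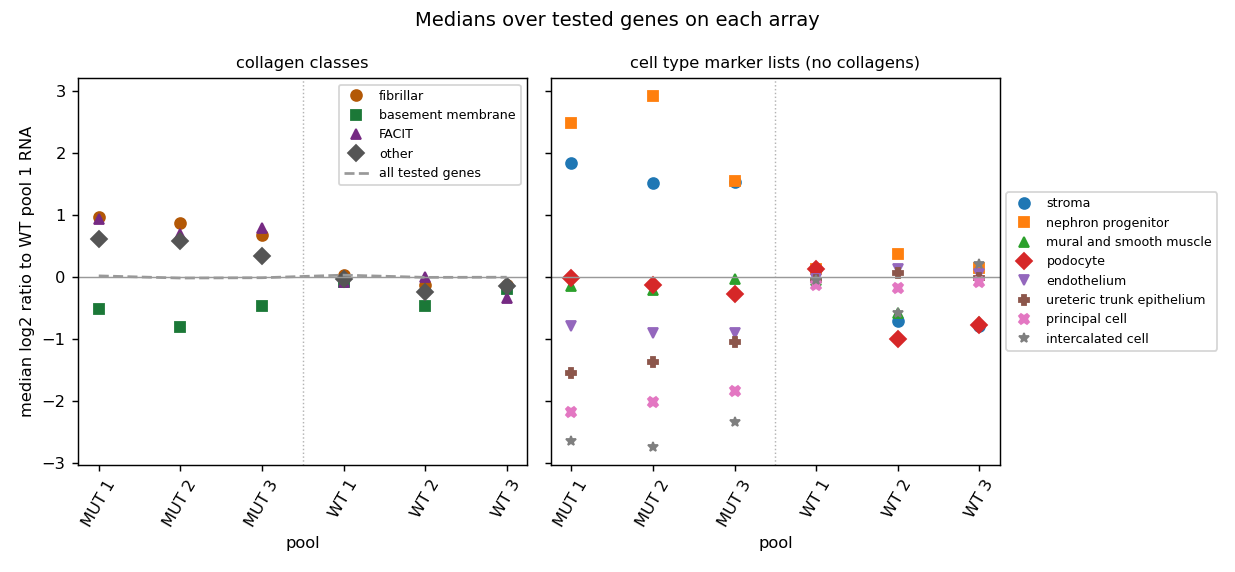
Median log2 ratio to WT pool 1 RNA (y axis) in MUT pools 1 to 3 and WT pools 1 to 3 (x axis), over the tested genes of each collagen class (left, with all tested genes as a dashed line) and of each cell type marker list (right). The stroma list (1.51 to 1.83 in MUT) lies above the fibrillar class (0.68 to 0.97 in MUT). The type IV class and the collecting duct, endothelium, podocyte and mural lists lie below 0 in the MUT pools. The type IV class also lies below 0 in the WT pools.

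Genes that make, cross-link and sense collagen were counted from a list of 43, of which 42 were on the array and 37 tested. Of these 15 were higher in MUT, 4 lower and 18 not called, with a median log2 of 0.32. Over all tested genes 14% were called higher and 18.8% lower, and the shares were not tested against each other. Cross-linking enzymes were higher in 4 of 5 cases. Among them Loxl1, a lysyl oxidase family member, had log2 ratios of 1.51, 1.36 and 1.29 in MUT pools, against -0.19, -0.61 and -1.06 in WT pools (log2 2.01 ± 0.21 SE, adjusted p = 0.000625). Lox, Loxl3 and Pxdn, the peroxidase that cross-links type IV collagen, were the others, and Lox was not well above background in the WT pools. Propeptide-processing enzymes were higher in 3 of 5 (Adamts2, Adamts14 and Bmp1), and the 2 secretion and regulation genes were not called.

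Of the enzymes that modify and fold collagen chains 5 of 17 were higher and 2 lower. Of all tested genes 14% and 18.8% were called so, and the shares were not tested against each other. P4ha2, a catalytic subunit of prolyl hydroxylase, was at 1.33, 0.99 and 1.01 in MUT pools, against 0.14, -0.19 and -0.18 in WT pools (log2 1.19 ± 0.14 SE). P3h3 and P3h2, of the prolyl hydroxylases that act on another position of proline, went opposite ways, at 1.08 ± 0.13 SE and -1.24 ± 0.19 SE. The MUT pools of P3h2 were at -1.62, -1.42 and -1.09, against 0.03, -0.49 and 0.07 in the WT pools. Colgalt2, a collagen galactosyltransferase, was the other gene that fell, at -0.90. Serpinh1, the collagen chaperone, was not called, at 0.30 ± 0.30 SE (adjusted p = 0.492), with MUT pool 1 at 0.89 and MUT pools 2 and 3 at -0.31 and -0.29.

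Of 8 tested collagen receptors 3 were higher, where 14% of all tested genes were. The 2 that were lower are a share near the 18.8% of all tested genes. Ddr2, a receptor tyrosine kinase for fibrillar collagen found in mesenchymal cells, had log2 ratios of 1.36, 1.34 and 1.47 in MUT pools, against 0.02, -0.63 and -1.22 in WT pools (log2 2.00 ± 0.27 SE). Ddr1, its epithelial relative that also binds type IV collagen, was at -0.36, -0.86 and -0.70 in MUT pools, against 0.19, -0.01 and 0.15 in WT pools (log2 -0.75 ± 0.15 SE, adjusted p = 0.00811). In neither gene did the MUT and WT pools overlap. Itga11, a collagen-binding integrin chain, and Mrc2, a receptor for collagen uptake, were higher by 1.86 ± 0.28 SE and 1.66 ± 0.21 SE. Adgrg1, an adhesion receptor that binds type III collagen, was at -2.20, -2.37 and -1.95 in MUT pools, against -0.16, -0.49 and 0.02 in WT pools (log2 -1.96 ± 0.16 SE).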

How the data were processed

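The members, classes and gene lists were chosen with earlier results of these data known. The submitters' processing notes name Agilent Feature Extraction 10.7.3.1. Its deposited output gives each spot's median intensity and the median of the local background, for both channels. The deposited value table holds log10 ratios of Cy5 to Cy3, which differed from those in the scanner files by at most 0.00499, with a median of 0 on each array. It was used as an alternative. Labelling started from 0.5 µg of RNA, per the labels, all arrays were on 1 slide, and no dyes were swapped. Between 27022 and 31310 probes were well above background on each array, and no spot was saturated. On the array of MUT pool 1, 403 spots were marked as outliers, against 196 to 246 on the others. When limma weighted arrays by their fit, MUT pool 1 had a weight of 0.25 and the others 1.05 to 1.67. The number of arrays limits the precision.

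From the files, normexp (offset 50) corrected the background, and log2 ratios were normalized within arrays by loess. Spots marked as outliers were left out, and spots of a probe were averaged. The offset understates the change of dim probes. A test needed Cy5 signal well above background in all 3 pools of a group, which left 29002 of 55681 (52.1%), of which 63 lacked the value of an array. The difference between MUT and WT came from limma (lmFit and eBayes) on all 6 arrays. P-values were adjusted by Benjamini-Hochberg over the tested probes, and a call needed an adjusted p under 0.05. Of these probes 7584 (26.1%) were called, 44.2% of them higher in MUT. A gene took its brightest tested probe. Names came from RefSeq accessions without versions, matched to a GRCm38.p6 table. The array headers name another build, so promoter windows are the only coordinates given.

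Values on all 6 arrays are given for the type IV genes and for the 4 called genes with the largest difference in each class. Genes called against their class, probes that differ in call, the 8 called biosynthesis and receptor genes with the smallest p and the 2 markers of each list with the smallest p are also named. Others were named after their values were seen. A marker that this rule takes is not reported here. Partner chains were compared by exact permutation. The fit was tested on simulated data with independent noise on each spot. The simulation held no differences between pools of a group or between slide rows, so it does not bear on these. Computation used R 4.3.3, limma 3.58.1, data.table (version 1.17.8), Python 3.11.15, scipy 1.17.1 and matplotlib 3.10.9.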

Additional observations from a re-analysis of the deposited data

How the results depend on the processing

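Over 19 alternatives, 7 collagens were called higher in each: Col2a1, Col3a1, Col5a1, Col6a3, Col8a2, Col9a1 and Col16a1. With spike-in scaling 19144 probes were called, with 28 collagens higher and 0 lower. The class medians were then 1.72 (fibrillar), 0.59 (type IV, reversed), 1.93 (FACIT) and 1.56 (other), with Col4a1 at 0.83, Col4a2 at 0.81, Col4a6 at 0.84, Col4a3 at 0.21, Col4a5 at 0.36, Col18a1 at 0.034, Col26a1 at 0.19 and Col20a1 at 0.83. In limma's test 0 collagens were also lower at an unadjusted p under 0.05. The cause was not tested. Of the called probes 98.9% were then higher in MUT, and with median centring 77.3% of 6037, where 1 collagen (Col4a4) was lower and the medians were 1.12, -0.054, 1.26 and 0.90 in the same order of classes. With the slide row as a block 2194 probes were called, with 7 collagens higher and 2 lower, and the FACIT and other medians were 0.77 and 0.45. The fibrillar, FACIT and other medians were 1.53, 1.62 and 1.76 with Agilent's processed signals and also with the deposited value table. They were 1.24, 1.30 and 1.01 with a normexp offset of 0, and 1.86, 1.54 and 1.13 with probes above background on all 6 arrays, which tests fewer genes. With Cy5 alone the fibrillar and other medians were 1.00 and 0.84. With no filter the FACIT and other medians were 0.24 and 0.29, over more dim genes. Weighting the arrays gave 10106 called probes, with 21 collagens higher and 5 lower.

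Leaving out each pool in turn, 3831 (without WT pool 3) to 9536 (without MUT pool 1) probes were called, with 13 to 21 collagens higher and 3 to 5 lower. The class medians ranged from 0.75 to 0.98 (fibrillar), -0.45 to -0.26 (type IV), 0.79 to 1.07 (FACIT) and 0.53 to 0.70 (other). The pool numbers were not found to pair the samples, since the correlations of same-numbered pools' deviations were 0.14, 0.07 and 0.20. With pool number as a replicate block 7245 probes were called, with 18 collagens higher and 5 lower: Col11a1 was lost (adjusted p = 0.0504) and Col7a1 gained (adjusted p = 0.00578).

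Only 3 pools per group, 1 slide and a missing dye swap limit these values, and 8 collagens too dim to test, with 7 others that passed the filter through 1 group alone, leave part of the family poorly described.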
